A study of Mus musculus with 6 samples.

Results

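The genes described here are the 7 mammalian sirtuins (*Sirt1* to *Sirt7*), the coactivator *Ppargc1a* and the NAD-synthesis enzymes *Nampt* and *Nmnat2*, taken as named genes whatever their values, with every probe set whose gene symbol in the deposited tables is one of them. They comprised 10 genes of 22527 gene symbols and 18 probe sets of 45077, and all 10 genes were found. On this kind of array several short probes, together called a probe set, read 1 transcript, and the signal of a probe set is given on the log2 scale, on which a difference of 0.263 is a 1.2-fold change. The samples were cerebral cortices of male mice labelled 16 weeks old, 2 biological samples in each of 3 groups (6 in all), hybridised to Affymetrix array strips for the mouse genome, and whether a sample was 1 mouse or a pool is not given in the sources used here. SAMP8 is an inbred, non-transgenic mouse strain that shows early signs of aging and learning deficits, and SAMR1 is the related strain with normal aging that serves as its control. SAMP8 + STEE mice received sugarcane top ethanolic extract by mouth at 20 mg/kg, and SAMP8 + Water and SAMR1 + Water mice received an equal volume of water. Administration lasted 30 days and went on during 8 days of behavioral testing in all 3 groups, all animals were housed singly, and the methods state that mice also received the thymidine analog BrdU in their drinking water. The methods give 16 weeks as the age of the mice taken into the study, so that the cortices, collected after the testing, came from older mice. The tables give the authors' mean of each group and no value per sample, so that no spread between samples, no test and no overlap of groups could be computed from the values used here, and every difference given is one between authors' means. Where 3 means of a gene follow each other, they are those of SAMR1 + Water, SAMP8 + Water and SAMP8 + STEE, in this order.

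Sirtuins are enzymes that remove acetyl and related acyl groups from proteins, and they consume NAD with each reaction, so that their activity depends on the supply of NAD. SIRT1, SIRT6 and SIRT7 are found mainly in the nucleus, SIRT2 mainly in the cytoplasm, and SIRT3, SIRT4 and SIRT5 in mitochondria. *Nampt* encodes the rate-limiting enzyme of the pathway that recycles nicotinamide to NAD, *Nmnat2* encodes the neuronal enzyme that completes NAD synthesis and maintains axons, and *Ppargc1a* encodes PGC-1α, a coactivator of mitochondrial genes that SIRT1 deacetylates.

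The start sites of *Sirt3* are shown because its means differed most among the 10 genes. That of *Sirt6* is shown because its window alone held the motif searched for NRF1, a regulator of nuclear genes for mitochondria. That of *Sirt1* is shown because its mean was higher in SAMP8 + Water than in SAMR1 + Water. The means of *Nmnat2* and, by 0.01, of *Sirt2* were higher too, and their windows are not shown. Each window runs from 250 bases before to 50 bases after a RefSeq start (GRCm38.p6), is written 5′ to 3′ on the strand of the gene, and carries in capitals the matches, on either strand, to 7 motifs described after it. All 3 genes lie on the minus strand, *Sirt3* on chromosome 7 at chr7:140863663-140882309, *Sirt6* on chromosome 10 at chr10:81621787-81627792 and *Sirt1* on chromosome 10 at chr10:63319005-63339035. The *Sirt6* start shown and its match to the NRF1 motif lie inside the span of *Sirt6*. The downstream start of *Sirt3* likewise lies inside the span of *Sirt3*.
Sirt3, upstream start (chr7:140882260-140882559, minus strand): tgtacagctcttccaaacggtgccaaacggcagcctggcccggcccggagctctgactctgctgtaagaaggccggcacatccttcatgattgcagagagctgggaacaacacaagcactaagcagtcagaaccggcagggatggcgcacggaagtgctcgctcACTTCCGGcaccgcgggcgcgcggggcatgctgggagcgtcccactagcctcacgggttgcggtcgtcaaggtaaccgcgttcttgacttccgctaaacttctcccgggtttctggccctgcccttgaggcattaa
Sirt3, downstream start (chr7:140881820-140882119, minus strand): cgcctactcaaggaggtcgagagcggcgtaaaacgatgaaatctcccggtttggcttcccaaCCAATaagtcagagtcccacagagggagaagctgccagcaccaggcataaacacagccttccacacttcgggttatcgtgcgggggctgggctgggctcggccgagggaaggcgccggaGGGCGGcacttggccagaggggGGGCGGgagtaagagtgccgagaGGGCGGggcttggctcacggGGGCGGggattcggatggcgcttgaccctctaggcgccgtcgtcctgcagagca
Sirt6, upstream start (chr10:81627517-81627816, minus strand): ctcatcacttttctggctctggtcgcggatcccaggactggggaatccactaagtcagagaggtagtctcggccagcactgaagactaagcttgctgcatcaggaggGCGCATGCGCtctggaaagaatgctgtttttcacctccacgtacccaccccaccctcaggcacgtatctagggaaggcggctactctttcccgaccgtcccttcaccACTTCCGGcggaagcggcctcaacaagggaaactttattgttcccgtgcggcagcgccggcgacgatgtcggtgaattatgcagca
Sirt1 (chr10:63338986-63339285, minus strand): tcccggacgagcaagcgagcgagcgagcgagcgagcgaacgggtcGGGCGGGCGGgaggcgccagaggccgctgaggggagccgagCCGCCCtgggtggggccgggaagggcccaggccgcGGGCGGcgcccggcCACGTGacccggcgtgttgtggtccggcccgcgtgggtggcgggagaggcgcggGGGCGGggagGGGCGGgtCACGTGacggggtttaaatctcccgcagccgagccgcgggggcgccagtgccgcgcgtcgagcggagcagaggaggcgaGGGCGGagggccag

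The other genes lie at chr7:28766752-28788665 (*Sirt2*, plus strand), chr5:115478006-115490264 (*Sirt4*, minus strand), chr13:43365389-43395203 (*Sirt5*, plus strand), chr11:120618371-120625014 (*Sirt7*, minus strand), chr5:51454249-52115853 (*Ppargc1a*, minus strand), chr12:32820335-32853369 (*Nampt*, plus strand) and chr1:152954781-153119266 (*Nmnat2*, plus strand). The 10 genes had 12 such windows in the RefSeq table, with *Sirt3* and *Sirt6* having 2 each and those of *Sirt6* overlapping. The starts used for *Sirt4*, *Sirt5*, *Ppargc1a* and *Nmnat2* lie inside the spans given, so that their windows are not those of the outermost end of the gene. GC content ranged from 48.7% at *Ppargc1a* to 79.0% at *Sirt1*, with a median of 52.7% over all 32851 windows. The *Sirt1* window held 47 CpG dinucleotides and that of *Ppargc1a* held 5, with a median of 7 over all windows. The GC box GGGCGG was found in 7 of the 12 windows, with 7 matches at *Sirt1* and 5 at *Nampt*, and in 35.7% of all windows. The E-box CACGTG, an element bound by clock and MYC-family factors, was found at *Sirt1*, with 2 matches, and in 7.15% of all windows. The motif of NRF1 was searched as the 10 letters of the first capital run in the upstream window of *Sirt6*, the only one of the 12 that held it, and was found in 0.971% of all windows. That window and the upstream window of *Sirt3* also held CCGGAAGT, a motif of ETS factors such as GABPA that was found in 3.89% of all windows. CCAAT was found at *Sirt2*, *Sirt3* and *Sirt5* and in 37.4% of all windows, whereas TATAAA (13.6% of all windows) and the cAMP response element TGACGTCA (1.79%) were found in none of the 12. A pair of GC boxes at *Sirt1* shares letters and each was counted, no other matches overlapped, and a match is a description of letters, not of a bound site.

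*Sirt3* had the widest range of the 10 genes. Its mean log2 signal was 6.65 in SAMR1 + Water, 6.24 in SAMP8 + Water and 6.31 in SAMP8 + STEE. *Sirt3*, which encodes the main deacetylase of mitochondria, was thus 0.41 lower on the log2 scale in SAMP8 + Water than in SAMR1 + Water, a 1.33-fold difference, and with STEE it differed from SAMP8 + Water by 0.07 and from SAMR1 + Water by -0.34. Differences of at least 0.41 in either direction between SAMP8 + Water and SAMR1 + Water were seen for 2.28% of all probe sets, and for 4.69% of the 4714 probe sets within 0.5 of its mean signal. The gene had a single probe set, of the type that recognises several transcripts of a gene (1417892_PM_a_at), so that no second probe set was there to compare it with.

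Between SAMP8 + Water and SAMR1 + Water, *Sirt3* was the only one of the 10 genes past 1.2-fold when each gene was read from its brightest probe set, that is, the one whose signal averaged over the groups was highest. Of all genes read in this way, 3.19% were at least 1.2-fold lower and 3.68% at least 1.2-fold higher, 6.86% in either direction. With 10 genes, a count of 1 lies near that background and is no result about the genes as a group. At 1.1-fold the count was 6 of 10, beside 24.8% of all genes. The median difference over the 10 genes was -0.045, and over all probe sets it was 0.00.

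The other mitochondrial sirtuins were also at lower means in SAMP8 + Water. *Sirt5*, which encodes an enzyme that removes succinyl, malonyl and glutaryl groups, had means of 5.48 in SAMR1 + Water, 5.24 in SAMP8 + Water and 5.24 in SAMP8 + STEE at its brightest probe set, 0.24 lower in SAMP8 + Water. A second *Sirt5* probe set gave 5.26, 5.01 and 5.06, a difference of -0.25. Both sets thus placed both SAMP8 groups below SAMR1 by similar amounts, and differences of at least 0.24 were seen for 9.32% of all probe sets. The third *Sirt5* probe set had means of 3.18, 3.20 and 3.12, below the median signal of 4.15 of all probe sets, and differed by 0.02. *Sirt4*, whose product acts on mitochondrial metabolic enzymes, had means of 4.76, 4.69 and 4.80, a difference of -0.07 between SAMP8 + Water and SAMR1 + Water, which 55.0% of all probe sets reached.

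Of the nuclear sirtuins, *Sirt6* and *Sirt7* lay on the lower side and *Sirt1* on the higher side. *Sirt6*, which encodes a chromatin deacetylase involved in DNA repair, had means of 5.07 in SAMR1 + Water, 4.87 in SAMP8 + Water and 4.89 in SAMP8 + STEE, a difference of -0.20 between the water groups. *Sirt7*, which encodes a nucleolar enzyme, had means of 6.65, 6.46 and 6.63 and differed by -0.19. Differences of at least these sizes were seen for 13.7% and 15.1% of all probe sets, and for 22.6% and 26.5% of those of like signal. *Sirt1*, the sirtuin closest to yeast Sir2 and the one that deacetylates PGC-1α, had means of 6.29, 6.44 and 6.38, 0.15 higher in SAMP8 + Water than in SAMR1 + Water. A difference of at least 0.15 was seen for 23.2% of all probe sets and for 37.5% of those of like signal. In this comparison 5 of the 7 sirtuin genes had lower means in SAMP8 + Water, with a median of -0.19 over the 7, and 49.1% of all genes had lower means.

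*Sirt2* encodes a tubulin deacetylase that is abundant in myelinating oligodendrocytes. Its means were 8.16, 8.17 and 8.16, a range of 0.01, which is what rounding of the deposited means to 2 decimals can give. Genes of myelin and oligodendrocytes differed between the same groups, with 9 of 10 at lower means in SAMP8 + Water than in SAMR1 + Water, 7 of them past 1.2-fold lower (3.19% of all genes), and a median of -0.295. Over the 28 probe sets of these myelin genes 27 had lower means in SAMP8 + Water. *Mog*, a surface protein of myelin, had means of 6.30, 5.67 and 5.85, and *Mag*, an adhesion protein of the myelin sheath, had 8.33, 8.02 and 7.95, whereas *Ermn*, a cytoskeletal protein of oligodendrocytes, was higher in SAMP8 + Water than in SAMR1 + Water by 0.14 at its brightest probe set. The list had signals of 6.30 to 12.18 in SAMR1 + Water, so that none of its genes was near the floor of the array. *Sirt2* was thus level where most of the myelin list was not. In bulk cortex fewer cells of a type and less RNA per cell cannot be told apart, and the part of these cells in the values of the sirtuins was not tested.

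Markers of other cell types had lower means in SAMP8 + Water than in SAMR1 + Water for most genes of 3 lists, the direction seen for *Sirt3*. Over all genes, 49.1% had lower means in this comparison. Of 6 choroid plexus genes 5 had lower means in SAMP8 + Water than in SAMR1 + Water, with a median of -0.24, and *Ttr*, the carrier protein that this epithelium secretes, had means of 10.20, 8.24 and 9.33. The other 5 genes of that list had signals of 2.87 to 5.25 in SAMR1 + Water. Of 8 astrocyte genes 6 had lower means, with a median of -0.10, and of 6 endothelial genes 5 had, with a median of -0.085. The astrocyte gene *Gfap* went the other way, 0.21 higher at its brightest probe set and higher at all 3 of its probe sets. Microglial genes were split evenly, 4 and 4, with a median of 0.03. The blood genes were read by 3 distinct probe sets, 2 higher and 1 lower, with a median of 0.01. The part of these cells in the differences of the sirtuins was not tested.

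**Figure D1:**
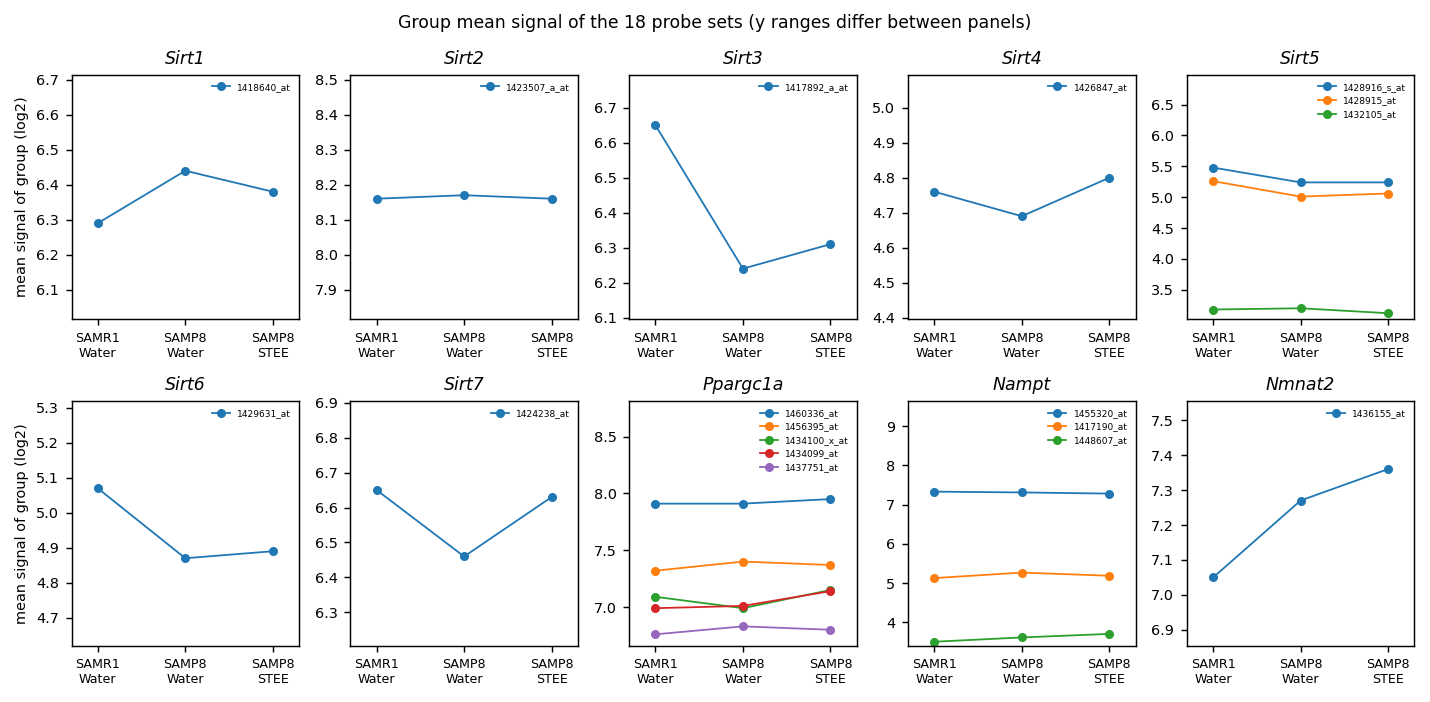
Mean log2 signal as deposited for SAMR1 + Water, SAMP8 + Water and SAMP8 + STEE, with 1 panel per gene and 1 line per probe set; each point is an authors' group mean, without error bars because no values per sample were used, and y ranges differ between panels. *Sirt3* lies at 6.65 in SAMR1 + Water and 6.24 in SAMP8 + Water, *Sirt7* is lowest in SAMP8 + Water at 6.46, *Nmnat2* is highest in SAMP8 + STEE at 7.36, and *Sirt2* is flat.

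Among the enzymes of NAD synthesis, *Nmnat2* was ordered from SAMR1 + Water over SAMP8 + Water to SAMP8 + STEE. Its means were 7.05, 7.27 and 7.36 at a single probe set. The mean in SAMP8 + Water was 0.22 above that of SAMR1 + Water, which 11.3% of all probe sets and 17.5% of those of like signal reached. The mean with STEE was 0.09 above SAMP8 + Water. Against SAMR1 + Water the SAMP8 + STEE mean was 0.31 higher, a 1.24-fold difference that 5.69% of all probe sets and 9.99% of those of like signal reached. *Nmnat2* is expressed in neurons. At the brightest probe sets 9 of 10 neuronal marker genes also had higher means in SAMP8 + Water than in SAMR1 + Water. Their median was 0.07 and the highest difference 0.24. Against the same SAMR1 + Water samples 9 of 10 were higher in SAMP8 + STEE, with a median of 0.105. Of all probe sets with a mean signal of at least 5, 51.8% and 55.3% were higher in these comparisons. With the probe sets of each gene averaged, *Camk2a* was at -0.11 and *Rbfox3* at -0.01 between the water groups, and the other markers were above 0. These markers had signals of 7.05 to 11.38 in SAMR1 + Water, and the part of neuronal content in the value of *Nmnat2* was not tested.

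*Nampt* was nearly level at its brightest probe set, with means of 7.33, 7.31 and 7.28. The other 2 probe sets gave 5.13, 5.27 and 5.19, and 3.51, 3.62 and 3.71, which were 0.14 and 0.11 higher in SAMP8 + Water than in SAMR1 + Water. The direction between the strains thus depended on the probe set, and the mean difference over the 3 was 0.08. With STEE the 3 probe sets differed from SAMP8 + Water by -0.03, -0.08 and 0.09.

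*Ppargc1a* was represented by 5 probe sets, with signals averaged over the groups of 6.80 to 7.92, the faintest of them above 82.5% of all probe sets. The brightest gave 7.91 in SAMR1 + Water, 7.91 in SAMP8 + Water and 7.95 in SAMP8 + STEE. Between SAMP8 + Water and SAMR1 + Water the 5 probe sets differed by -0.10 to 0.08, with a mean of 0.01. No direction between the strains was shared by the 5. With STEE, 3 of them were above SAMP8 + Water and 2 below, from -0.03 to 0.16. The 2 with the larger values, 0.16 (1434100_PM_x_at) and 0.13 (1434099_PM_at), were designed from the same transcript cluster according to the array design column, and the other 3 from a different one. All 5 were higher in SAMP8 + STEE than in SAMR1 + Water, by 0.04 to 0.15.

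The comparison of SAMP8 + STEE with SAMP8 + Water asks which genes differ with the extract within the SAMP8 strain, and in it none of the 10 genes passed 1.2-fold. Over all genes 2.02% did so in either direction, 1.1% higher and 0.923% lower. The differences of the 10 genes ran from -0.06 for *Sirt1* to 0.17 for *Sirt7*, with a median of 0.03 beside 0.00 over all probe sets. *Sirt7* went from 6.46 to 6.63, a 1.13-fold difference that 9.86% of all probe sets and 13.2% of those of like signal reached. It was the only one of the 10 past 1.1-fold, which 15.2% of all genes passed. *Sirt4* differed by 0.11 and *Sirt3* by 0.07, sizes that 26.2% and 46.7% of all probe sets reached. Of the 7 sirtuin genes, 4 had higher means with STEE, 2 lower (*Sirt1* and *Sirt2*) and *Sirt5* the same mean, while 48.4% of all genes had higher means. This comparison and that of the strains share the SAMP8 + Water samples, so that their signs are not independent, and the opposite signs of *Sirt3*, *Sirt4*, *Sirt6* and *Sirt7* are given as each comparison's own values only.

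SAMP8 + STEE set directly against SAMR1 + Water does not use the SAMP8 + Water samples. It shares the SAMR1 + Water samples with the comparison of the strains, so that the values of these 2 comparisons are not independent either. Past 1.2-fold were 2 of the 10 genes, *Sirt3* at -0.34 and *Nmnat2* at 0.31, while 2.93% of all genes were at least 1.2-fold lower and 4.44% at least 1.2-fold higher, 7.38% in either direction. At 1.1-fold the count was 4 of 10, beside 26.6% of all genes. *Sirt5* differed by -0.24 and *Sirt6* by -0.18. *Sirt7*, at -0.02, *Sirt4*, at 0.04, *Ppargc1a*, at 0.04, and *Nampt*, at -0.05, had SAMP8 + STEE means within 0.05 of those of SAMR1 + Water. The median over the 10 genes was -0.01, the same as over all probe sets.

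**Figure D2:**
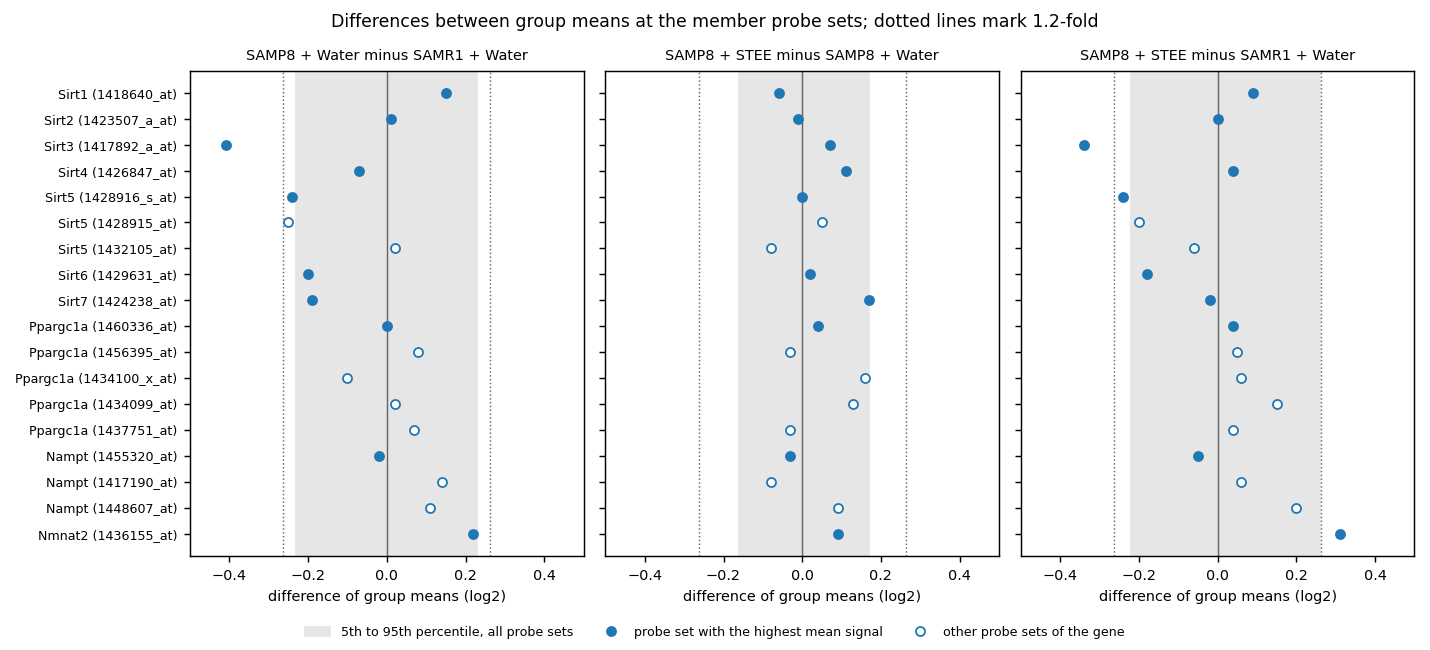
Differences between authors' group means on the log2 scale (x axis) for each of the 18 probe sets (y axis) in the 3 comparisons, with filled points for the brightest probe set of a gene, open points for its others, a grey band from the 5th to the 95th percentile of all probe sets and dotted lines at 1.2-fold. *Sirt3* lies at -0.41 and -0.34 against SAMR1 + Water, *Nmnat2* at 0.31 in SAMP8 + STEE against SAMR1 + Water, and no point passes 1.2-fold between SAMP8 + STEE and SAMP8 + Water.

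How far probe sets of the same gene differed gives a scale for these values within the same samples. For the 4228 genes with at least 2 probe sets of mean signal 5 or more, the 2 brightest disagreed in the difference between SAMP8 + Water and SAMR1 + Water by a median of 0.10, with a 90th percentile of 0.27. For SAMP8 + STEE against SAMP8 + Water the median disagreement was 0.06 and the 90th percentile 0.18, and the signs matched for 58.0% of the genes. For SAMP8 + STEE against SAMR1 + Water the 90th percentile was 0.29. At the brightest probe sets, *Sirt3* exceeded the 90th percentile in both comparisons with SAMR1 + Water and *Nmnat2* in that of SAMP8 + STEE with SAMR1 + Water, whereas the differences between SAMP8 + STEE and SAMP8 + Water were below it for all 10 genes. The 2 comparisons with SAMR1 + Water share those samples, so that the 2 *Sirt3* values are not independent. This scale holds probe and splice differences and leaves out the spread between samples.

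The array also held other genes of the NAD pathway. Of 14 further genes of NAD synthesis, 4 had higher and 9 lower means in SAMP8 + Water than in SAMR1 + Water, with a median of -0.01 and 1 past 1.2-fold, near the 6.86% of all genes. This was *Ido1*, which encodes the enzyme that opens the route from tryptophan to NAD, with means of 4.61, 5.21 and 5.09, 0.60 higher in SAMP8 + Water at its single probe set. The other 13 differed by -0.08 to 0.05, *Nmnat1* with means of 3.57, 3.49 and 3.49 and *Kmo* with 3.46, 3.51 and 3.53 among them. The median signal of these 14 genes in SAMP8 + Water was 3.56, below the median of all probe sets, whereas the brightest probe sets of *Nampt* and *Nmnat2* stood above it. With STEE none of the 14 passed 1.2-fold, beside 2.02% of all genes, and their differences from SAMP8 + Water ran from -0.12 to 0.12.

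Of 15 genes that use or handle NAD, 2 passed 1.2-fold between SAMP8 + Water and SAMR1 + Water, 1 in each direction, beside 6.86% of all genes in either direction. *Pnp*, the purine nucleoside phosphorylase that also splits nicotinamide riboside, had means of 7.56, 7.23 and 7.08, so that it was 0.33 lower in SAMP8 + Water and 0.48 lower in SAMP8 + STEE than in SAMR1 + Water. *Nudt12*, which encodes an enzyme that cleaves NAD and its reduced form, had means of 3.87, 4.15 and 4.20, a difference of 0.28 at a signal near the array median. *Parp1*, a large consumer of NAD in DNA repair, had means of 7.23, 7.12 and 7.19, and *Sarm1*, the axonal NAD hydrolase that NMNAT2 holds in check, had 4.82, 4.85 and 4.82. None of the 15 passed 1.2-fold with STEE, beside 2.02% of all genes, and the largest difference there was that of *Pnp*, -0.15.

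Partners and targets of PGC-1α gave no gene past 1.2-fold in any of the 3 comparisons. Over all genes 6.86% passed it between SAMP8 + Water and SAMR1 + Water, 2.02% between SAMP8 + STEE and SAMP8 + Water, and 7.38% between SAMP8 + STEE and SAMR1 + Water. Such a count in 20 genes lies near these shares and is no result about the list. Of 20 genes, 9 had higher and 11 lower means in SAMP8 + Water than in SAMR1 + Water, with a median of -0.01, and 10 had higher and 10 lower means with STEE, with a median of 0.01. *Fndc5*, a PGC-1α target that encodes the precursor of irisin, had the largest strain difference, with means of 6.52, 6.30 and 6.50. *Ppard*, a nuclear receptor, had the largest difference with STEE at the brightest probe sets, with means of 4.02, 4.09 and 3.87. These means lie below the median signal of all probe sets, and over the 3 probe sets of *Ppard* the mean difference with STEE was -0.07. *Tfam*, the factor that transcribes and packages mitochondrial DNA, had means of 6.65, 6.80 and 6.79, and *Esrra*, the receptor through which PGC-1α acts on respiratory genes, had 6.99, 6.95 and 6.92.

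Among 20 regulators and substrates of sirtuins, no gene passed 1.2-fold between SAMP8 + Water and SAMR1 + Water (6.86% of all genes) or with STEE (2.02%). In the strain comparison 11 had higher and 9 lower means, with a median of 0.035. Substrates of SIRT3 were on both sides, *Idh2*, a mitochondrial dehydrogenase that supplies NADPH, with means of 6.17, 5.97 and 5.99, *Acss1*, which makes acetyl-CoA from acetate, with 5.94, 5.69 and 5.83, and *Sod2*, the mitochondrial superoxide dismutase, with 7.97, 8.11 and 8.14. With STEE 16 of the 20 had higher means than in SAMP8 + Water and 3 lower, with a median of 0.03, while 55.9% of all probe sets with a mean signal of at least 5 had higher means. The largest were *Acss2*, the acetyl-CoA synthetase of cytoplasm and nucleus, with 6.63, 6.68 and 6.91, and *Foxo1*, a transcription factor that SIRT1 deacetylates, with 6.75, 6.87 and 7.08. These 2 were the genes of the list past 1.2-fold between SAMP8 + STEE and SAMR1 + Water, at 0.28 and 0.33, beside 4.44% of all genes past 1.2-fold higher, but over all probe sets of each gene the mean difference was 0.10 and 0.16.

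**Figure D3:**
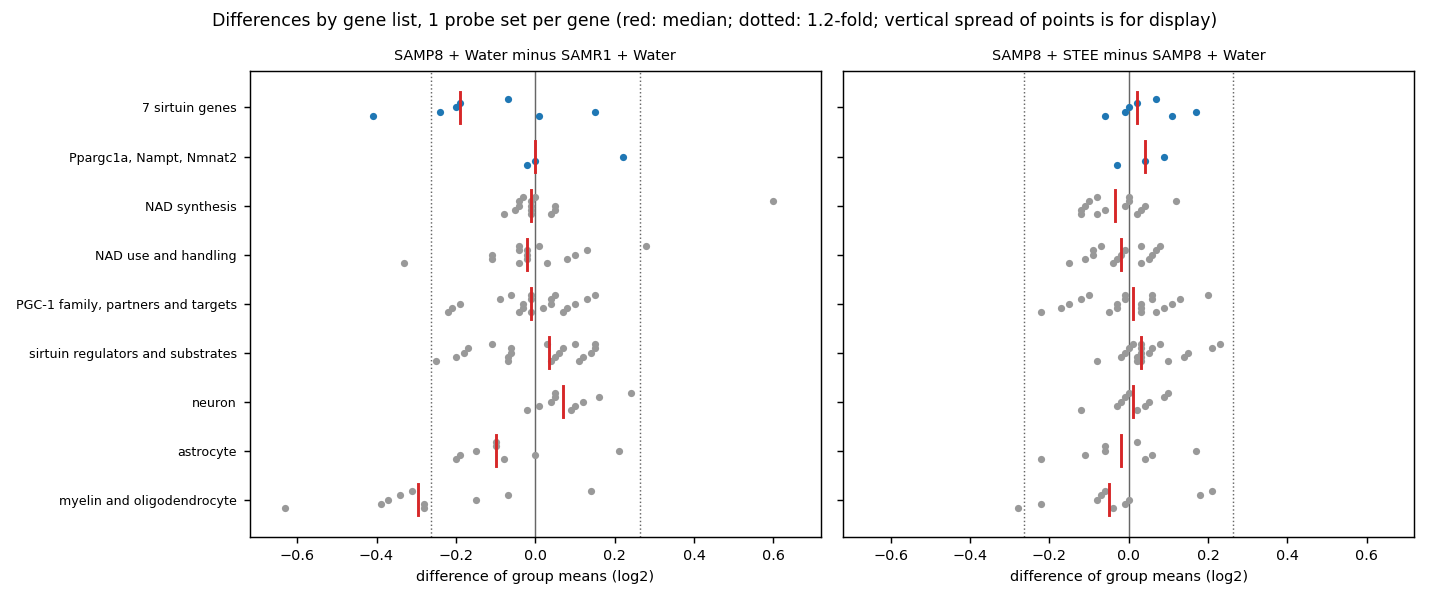
Differences between authors' group means on the log2 scale (x axis) for SAMP8 + Water minus SAMR1 + Water (left) and SAMP8 + STEE minus SAMP8 + Water (right), 1 point per gene at its brightest probe set, grouped by gene list (y axis) without the 10 genes in the pathway lists, with red bars at medians and dotted lines at 1.2-fold. The sirtuins have a median of -0.19 on the left and 0.02 on the right, *Ido1* stands apart in NAD synthesis at 0.60, and the myelin list has a median of -0.295 on the left.

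Genes next to the sirtuins gave strain differences of either sign. *Sirt3* and *Psmd13*, a proteasome subunit gene on the plus strand, begin 85 bases apart in opposite directions, and the brightest *Psmd13* probe set had means of 7.37, 7.48 and 7.46, 0.11 higher in SAMP8 + Water, where *Sirt3* was 0.41 lower. Of the 4 *Psmd13* probe sets 2 were higher and 2 lower, from -0.04 to 0.21, so that they shared no direction. At its other end *Sirt3* overlaps *Ric8a* by 69 bases (chr7:140863663-140863731, listed on the array as Ric8), whose 4 probe sets differed by -0.29 to -0.01. *Sirt6* and *Ankrd24* lie 29 bases apart on opposite strands, and *Ankrd24* had means of 7.15, 6.91 and 6.99 at its brightest probe set, a difference of -0.24. Its 3 probe sets differed by -0.35 to 0.09. Beyond *Sirt5* lie *Nol7*, with means of 7.68, 7.48 and 7.47 at the brightest of its 3 probe sets but a difference of 0.51 at another, and *Ranbp9* with 8.31, 8.94 and 8.95 at the brighter of its 2, a difference of 0.63. Sequence differences between the strains under the probes were not tested.

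Over the 3 group means, the genes whose pattern was most like that of *Sirt3* included *Cirbp*, a cold-inducible RNA-binding protein gene, with means of 7.67, 7.27 and 7.32, and *Hsd11b1*, the gene of the enzyme that regenerates glucocorticoids, with 6.73, 6.34 and 6.41. Likeness was the Euclidean distance of the 3 means after subtracting their average, 0.014 for *Cirbp* and 0.016 for *Hsd11b1*. It was computed among 10752 probe sets with a mean signal of at least 6 and a single gene symbol, and each gene was represented by its closest probe set. With only 3 means per gene and so many probe sets, close matches can be found for many patterns. The likeness is therefore a description of these means and no sign of a shared regulation.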

How the data were processed

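RNA from the cerebral cortex (6 samples) was hybridised by the authors to Affymetrix array strips for the mouse genome, and probe intensities were summarised with RMA in Expression Console. The authors deposited log2 means (named bi-weight averages) of each group for 45077 probe sets, to 2 decimals, in 1 table per comparison. The mean of SAMP8 + Water was identical in both tables for all 45077 probe sets. The tables also hold fold changes, ANOVA p-values and FDR p-values of the authors' own comparisons, which were not used here.

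Groups were taken from the sample titles. Differences between the deposited log2 means were computed for 3 comparisons with Python 3.11.15, numpy 2.4.6 and pandas 2.3.3, and plotted with matplotlib 3.10.9. For counts and medians over genes, the probe set of highest mean signal stood for its gene. In the likeness to *Sirt3* the closest probe set of a gene stood for it instead, whether or not it was the brightest. Named genes were all 10 genes and, from 11 gene lists (124 entries, 123 of them found, 2 by an older symbol), some of those past 1.2-fold or else the largest, and others named for their role after their values had been seen. Several cell type markers past 1.2-fold, *Mobp* and *Cldn5* among them, are not described. Genes of a list read by the same probe set were counted as 1. Neighbouring genes were named in the same way. Of the genes most like *Sirt3* in pattern, 1 is not reported here. The gene lists and members were chosen with earlier results of these data known. The counting was checked on simulated data. Precision is limited by the number of arrays. The gene of a probe set was named by the authors' symbol.

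Promoter sequences are those of RefSeq, GRCm38.p6. Alternatives were the mean over probe sets, exclusion of probe set types, centring, a signal limit and other fold thresholds.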

Additional observations from a re-analysis of the deposited data

How the results depend on the processing

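No paired analysis was possible because the deposited tables hold group means without values per sample, and for the same reason no sample could be left out in turn. Between SAMP8 + Water and SAMR1 + Water, the count of genes past the fold threshold, 1 at 1.2-fold, was 6 at 1.1-fold (*Sirt1*, *Sirt3*, *Sirt5*, *Sirt6*, *Sirt7* and *Nmnat2*; 24.8% of all genes), 0 at 1.5-fold (1.16% of all genes) and 0 with only probe sets without _s, _x or _a in their names, which leaves out *Sirt2* and *Sirt3*. Between SAMP8 + STEE and SAMP8 + Water it was 1 at 1.1-fold (15.2% of all genes) in place of 0. Between SAMP8 + STEE and SAMR1 + Water, where it was 2, it was 4 at 1.1-fold (26.6% of all genes), 0 at 1.5-fold (1.18% of all genes) and 1 with the restricted probe sets. With the probe sets of each gene averaged, with centring, or with a limit of 5 on the mean signal, which leaves out *Sirt4* and *Sirt6*, these counts did not change. Of 108 differences of single genes under these alternatives, 105 moved by less than the median absolute difference of all probe sets and none past 1.2-fold changed sign. The other 3 came from averaging all probe sets, which gave -0.16 for *Sirt5* and 0.08 for *Nampt* between SAMP8 + Water and SAMR1 + Water, and 0.07 for *Nampt* between SAMP8 + STEE and SAMR1 + Water. Most of the 108 could hardly move. *Sirt1*, *Sirt2*, *Sirt3*, *Sirt4*, *Sirt6*, *Sirt7* and *Nmnat2* had 1 probe set each, so that averaging or leaving out probe sets gave the same value or none. Centring subtracted the median over all probe sets, 0.00 or -0.01. The count of 105 is therefore no measure of stability. Low signal limits what can be read from *Sirt4*, *Sirt6* and the faintest probe sets of *Sirt5* and *Nampt*.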
